A study of Mus musculus with 9 samples.

Results

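Layer A and layer C of the mouse piriform cortex, the main cortical area for the sense of smell, were compared gene by gene. The comparison used 6 of the 9 samples of the series, 3 labelled layer A and 3 labelled layer C, chosen by the layer letter in the sample labels. The 3 samples of layer B entered the fit of the spread between samples and no comparison described here. All samples came from wild type C57BL/6 mice, labelled as 8 weeks old, with no transgene and no treatment. The methods of the paper state an older age for these mice, and the age of the labels is used here. Each layer was cut out of fresh-frozen brain sections by laser capture, in which a laser separates a chosen area from the section, and its RNA was amplified before sequencing. The labels give no key from the letters to the anatomical layers I, II and III, so the letters are used as they stand. Nothing in the labels says whether replicates came from separate animals, so the p-values measure the spread between these samples, which may in part be technical.

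The piriform cortex is a paleocortex with a superficial layer of fibres, dendrites, scattered interneurons and glia, a dense layer of glutamatergic cell bodies and a deeper layer of more loosely packed neurons. Glutamatergic projection neurons release glutamate and send axons out of the area, and GABAergic interneurons inhibit their neighbours. Astrocytes clear transmitters and ions, oligodendrocytes make myelin, microglia are the resident immune cells, and endothelial cells, pericytes and smooth muscle build the blood vessels. Fibroblasts of the meninges cover the outer surface of the brain. A captured layer holds RNA of all these cells, and fewer cells of a type and less RNA per cell cannot be told apart in such bulk samples. Transcripts that neurons carry into dendrites, such as *Camk2a*, are also found where few cell bodies lie.

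The total count per sample was between 23271221 and 43705625 in layer A and between 23104306 and 76471683 in layer C. Mitochondrial ribosomal RNA made up 63.8% ± 7.65 of all counts in layer A and 35.8% ± 19.0 of all counts in layer C (mean ± SD over 3 samples each, two-sided exact permutation p = 0.2, where 0.1 is the smallest value that 3 against 3 samples allow). This share was 57.1% in layer C replicate 2, above the 55.3% of layer A replicate 3, and its part in the differences described here was not tested. Without mitochondrial transcripts, 6929782 to 19051783 counts remained in layer A and 9477078 to 60245059 in layer C. Levels are given as normalized CPM, counts scaled to a common library total after TMM normalization, and are written as CPM for the samples in the order of replicates 1, 2 and 3. They are set beside each other between samples, not between genes. A log2 fold change is that of layer A over layer C, fitted to 3 samples against 3 and followed by its standard error. A floor of 3 counts per library corresponded to 0.0748 to 0.254 normalized CPM in layer A and to 0.0256 to 0.191 in layer C, and covers counting error only.

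Each gene was represented by its most abundant tested transcript. Of 15186 genes tested, 2249 (14.8%) differed between the layers at an edgeR adjusted p-value under 0.05, 1420 (9.35%) higher in layer A and 829 (5.46%) higher in layer C. Effects were larger on the layer A side. The median log2 fold change was 2.21 among the genes higher in layer A, a 4.62-fold difference, and -1.48 among those higher in layer C, a 2.78-fold difference. A log2 fold change over 2 was found for 881 (62.0%) of the genes higher in layer A and for 155 (18.7%) of those higher in layer C. At over 4 on the log2 scale, the numbers were 58 and 21. The median over all tested genes was -0.02. The median standard error was 0.48 among genes higher in layer A and 0.35 among those higher in layer C.

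Consistency was followed over the 9 pairs of 1 layer A and 1 layer C sample, which share samples and are not independent. In all 9 pairs, layer A was higher for 2939 genes (19.4%) and layer C for 2516 (16.6%). Of the genes past the threshold, 1414 of 1420 and 820 of 829 kept their direction in every pair. Another 1525 genes on the layer A side and 1696 on the layer C side kept one direction in all pairs without passing the test. The smallest of the 9 ratios exceeded 2-fold for 969 genes on the layer A side and for 243 on the layer C side. It exceeded 4-fold for 173 and 14 genes. The count of calls changed with the libraries in the fit, and a fit with 1 sample left out also has fewer samples. Without layer C replicate 1, 553 genes passed (382 higher in layer A and 171 higher in layer C), and without layer A replicate 1, layer A replicate 2 or layer C replicate 2 the totals were 1073, 1234 and 1392. Without layer B replicate 3, 2002 passed as higher in layer A and 1305 as higher in layer C. An unadjusted p under 0.05 in edgeR was found for 4470 genes in the full fit and for 3380 without layer C replicate 1.

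**Figure D1:**
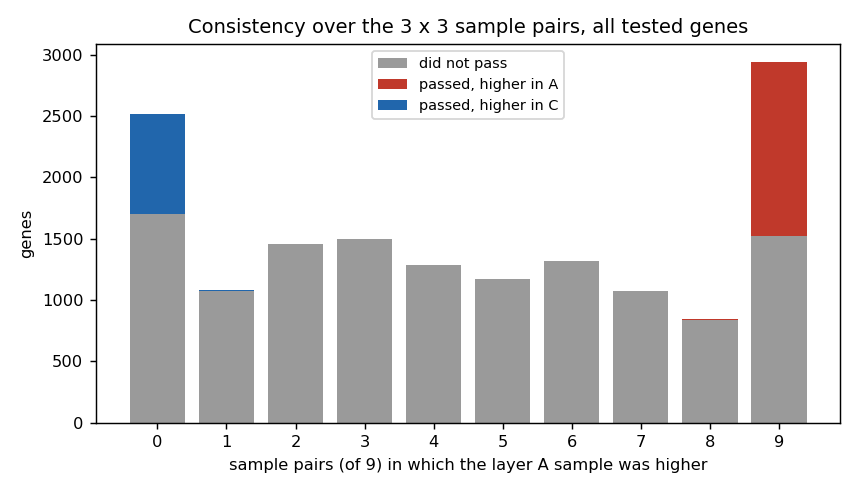
Number of tested genes (vertical axis) by the number of the 9 sample pairs in which the layer A sample had the higher normalized CPM (horizontal axis). Red and blue mark genes past the edgeR threshold, higher in layer A and in layer C; the bars at 9 and 0 hold all but 6 and 9 of them.

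The 12 genes with the largest differences on the layer A side, among those with a mean of at least 10 normalized CPM there and the same direction in all 9 pairs, were *Myoc*, *Slc13a4*, *Ogn*, *Fmod*, *Islr*, *Fmo2*, *Myh11*, *Col1a2*, *Gfap*, *Igf2*, *Ptgds* and *Acta2*. *Myoc* encodes myocilin, a secreted glycoprotein. Its level was 22.7, 14 and 38.9 CPM in layer A and 0, 0 and 0.136 in layer C. No layer C count was found in replicates 1 and 2, and 16 counts were found in replicate 3, against 268, 209 and 1559 counts in layer A. The fitted difference (log2 fold change 8.32 ± 0.76, edgeR adjusted p = 0.00033) therefore depends on the prior count and on those 16 reads. *Slc13a4*, which encodes a sulfate transporter, was at 12.4, 9.02 and 25.9 CPM in layer A and 0.0491, 0.0638 and 0.554 in layer C (log2 fold change 5.81 ± 0.75, edgeR adjusted p = 0.00146). *Ogn* and *Fmod* encode small proteoglycans of the extracellular matrix. *Ogn* was at 12.2, 7.48 and 20.8 CPM in layer A and 0.147, 0.128 and 0.358 in layer C. Every layer A sample lay above every layer C sample, as the choice required (log2 fold change 5.80 ± 0.56, edgeR adjusted p = 0.00046). *Fmod* was at 7.54, 6.28 and 26.9 CPM in layer A and 0.0982, 0.0638 and 0.903 in layer C. Replicate 3 had the highest value in both layers (log2 fold change 4.99 ± 0.83, edgeR adjusted p = 0.00292).

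Smooth muscle contractile genes, an astrocyte filament gene and a growth factor gene were also among these 12. *Myh11*, the myosin heavy chain of smooth muscle, was at 28.1, 6.88 and 20.6 CPM in layer A and 0.663, 0.765 and 1.01 in layer C (log2 fold change 4.48 ± 0.53, edgeR adjusted p = 0.00098). *Acta2*, smooth muscle actin, was at 10.8, 6.21 and 21 CPM in layer A and 1.08, 0 and 0.877 in layer C (log2 fold change 4.15 ± 0.88, edgeR adjusted p = 0.00873). Neither gene overlapped between the layers, since the choice of these 12 required it. *Gfap*, the intermediate filament of astrocytes, was at 51.7, 66.7 and 42.7 CPM in layer A and 2.77, 2.04 and 3.04 in layer C. It had the smallest adjusted p-value of all tested genes (log2 fold change 4.34 ± 0.34, edgeR adjusted p = 8.9e-05), and its 9 pair ratios ran from 3.79 to 5.0 on the log2 scale. *Igf2*, which encodes an insulin-like growth factor, was at 53.4, 38.5 and 78.8 CPM in layer A and 2.11, 3.32 and 3.2 in layer C (log2 fold change 4.31 ± 0.59, edgeR adjusted p = 0.00157). *Ptgds*, prostaglandin D synthase, was at 104, 197 and 494 CPM in layer A and 5.45, 4.27 and 34.4 in layer C. Its layer A values spread over a wide range, all above the highest layer C value as the choice required (log2 fold change 4.16 ± 0.79, edgeR adjusted p = 0.00535). All 12 passed the test whichever of the 9 samples was left out.

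**Figure D2:**
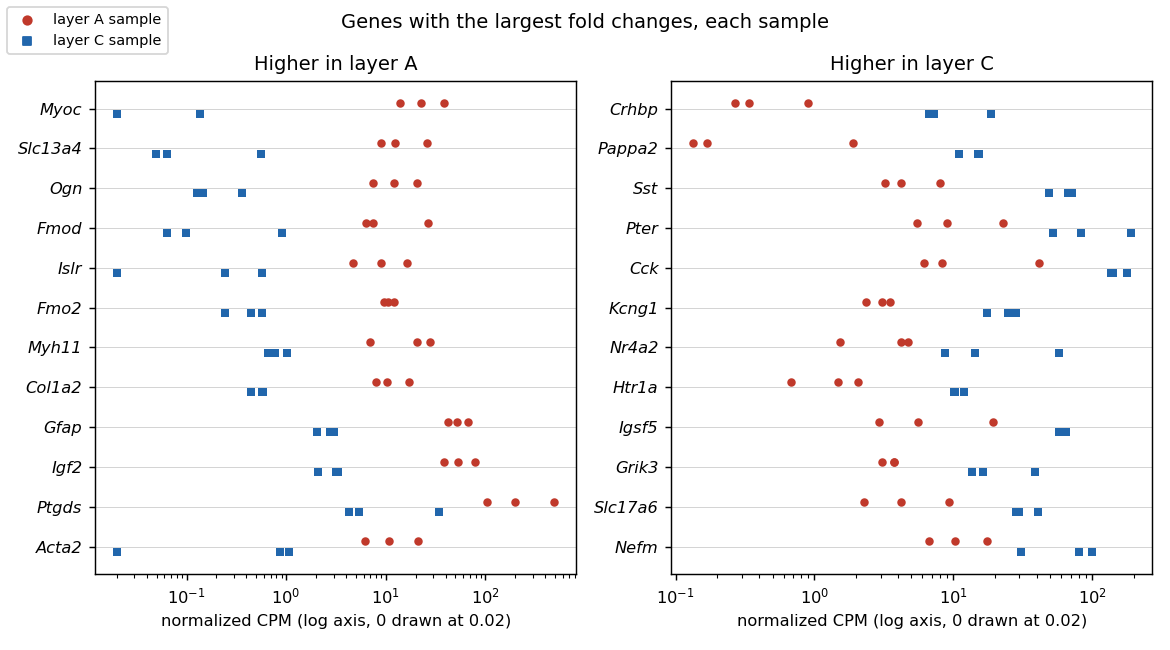
Normalized CPM (horizontal log axis, with a value of 0 drawn at 0.02) of the 12 genes with the largest differences in each direction, one point per sample. Red circles are the 3 layer A samples and blue squares the 3 layer C samples, and the groups do not overlap for any of the 24 genes, since the choice required it.

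On the layer C side the 12 were *Crhbp*, *Pappa2*, *Sst*, *Pter*, *Cck*, *Kcng1*, *Nr4a2*, *Htr1a*, *Igsf5*, *Grik3*, *Slc17a6* and *Nefm*. Neuropeptide and peptide-binding genes formed a first group. *Crhbp*, which encodes a protein that binds corticotropin-releasing hormone, was at 0.339, 0.267 and 0.898 CPM in layer A and 7.29, 6.7 and 18.7 in layer C (log2 fold change -4.30 ± 0.84, edgeR adjusted p = 0.00603). DESeq2 gave it no adjusted p-value. *Sst*, the neuropeptide somatostatin, was at 7.96, 3.21 and 4.19 CPM in layer A and 49.1, 71.8 and 66.7 in layer C (log2 fold change -3.62 ± 0.87, edgeR adjusted p = 0.0152). *Sst* had no adjusted p-value in DESeq2 either. *Cck*, the neuropeptide cholecystokinin, was at 8.3, 6.15 and 41.6 CPM in layer A and 178, 143 and 138 in layer C. Its layer A replicate 3 was several times above the other layer A samples, and below every layer C sample as the choice required (log2 fold change -3.02 ± 0.65, edgeR adjusted p = 0.0093). Channel and receptor genes formed another group. *Kcng1*, a modifier subunit of voltage-gated potassium channels, was at 3.05, 2.34 and 3.52 CPM in layer A and 28.5, 24.8 and 17.4 in layer C (log2 fold change -2.98 ± 0.34, edgeR adjusted p = 0.00093). *Htr1a*, a serotonin receptor, was at 0.677, 1.47 and 2.04 CPM in layer A and 10.1, 11.9 and 10.4 in layer C (log2 fold change -2.89 ± 0.41, edgeR adjusted p = 0.00176). *Grik3*, a kainate receptor subunit, was at 3.05, 3.74 and 3.74 CPM in layer A and 13.6, 16.3 and 38.9 in layer C. Layer C replicate 3 was above the other two (log2 fold change -2.71 ± 0.43, edgeR adjusted p = 0.00244).

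Transcription factor, transporter, neurofilament and protease genes were also among the 12. *Nr4a2*, an orphan nuclear receptor gene, was at 4.74, 1.54 and 4.19 CPM in layer A and 8.71, 14.3 and 57.7 in layer C (log2 fold change -2.95 ± 0.64, edgeR adjusted p = 0.00997). Layer C replicate 3 held most of that signal, and without it the gene no longer passed. *Slc17a6*, the vesicular glutamate transporter VGLUT2, was at 4.23, 2.27 and 9.38 CPM in layer A and 28.4, 40.6 and 29.9 in layer C (log2 fold change -2.61 ± 0.64, edgeR adjusted p = 0.0173). *Nefm*, a neurofilament subunit, was at 10.3, 6.68 and 17.5 CPM in layer A and 80.4, 99.9 and 31 in layer C (log2 fold change -2.60 ± 0.65, edgeR adjusted p = 0.0182). *Pappa2*, which encodes a protease of insulin-like growth factor binding proteins, was at 0.169, 0.134 and 1.9 CPM in layer A and 11, 15.1 and 15.3 in layer C. *Pter* and *Igsf5* had log2 fold changes of -3.10 and -2.71. Between 8 and 12 of these 12 genes passed when 1 sample was left out. *Igsf5* was lost without any 1 of 5 samples, *Nefm* and *Slc17a6* without layer A replicate 1 or 2 or layer C replicate 1 or 2, and *Sst* without layer A replicate 2 or 3 or layer C replicate 1. *Cck* was lost without layer A replicate 1. *Igsf5* also had no call in DESeq2, under library totals without mitochondrial counts and with 10 counts asked for in all 9 samples.

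The stretch upstream of the start was looked up for these 24 genes in the RefSeq promoter table for GRCm38.p6, and 20 had an entry. In all, 3 motifs were searched on both strands in the 250 bases before the start: the cAMP response element TGACGTCA, the letters TATAAA and the AP-1 element TGAGTCA. These were found in 1, 3 and 1 of the 20 entries, and in 1.55%, 12.4% and 4.46% of all 32851 promoters in the table. *Sst* was the entry with the cAMP response element, which has long been studied in this promoter, and *Myoc*, the gene with the largest difference, held TATAAA 26 bases before its start. Both are shown 5′ to 3′ with the matched letters in capitals, *Sst* from the minus strand at chr16:23890845-23891094 (its RefSeq start lies 114 bases from that of the counted transcript) and *Myoc* from the plus strand at chr1:162638900-162639149. They were chosen after the matches were seen, and a match describes letters only.
Sst: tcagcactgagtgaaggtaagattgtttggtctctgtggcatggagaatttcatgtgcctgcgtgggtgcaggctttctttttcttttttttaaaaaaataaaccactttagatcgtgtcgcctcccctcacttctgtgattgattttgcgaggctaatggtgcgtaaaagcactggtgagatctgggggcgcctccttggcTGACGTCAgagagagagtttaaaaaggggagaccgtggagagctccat
Myoc: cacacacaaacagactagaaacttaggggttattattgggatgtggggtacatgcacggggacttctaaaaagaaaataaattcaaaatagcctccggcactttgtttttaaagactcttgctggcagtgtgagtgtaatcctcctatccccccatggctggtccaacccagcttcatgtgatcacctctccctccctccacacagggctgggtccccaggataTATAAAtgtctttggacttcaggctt

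Genes that mark neighbouring structures were followed as well. The gene lists here and below were chosen with earlier results of these data known, so counts within them describe the members. The endopiriform nucleus and claustrum lie deep to the piriform cortex. Of 9 tested genes linked to them, 4 (*Gng2*, *Nr4a2*, *Synpr* and *Oprk1*) were higher in layer C, against 5.46% of all tested genes. *Oprk1*, the kappa opioid receptor, was at 0, 0 and 0.598 CPM in layer A and 2.45, 2.81 and 11.2 in layer C (log2 fold change -4.33 ± 1.15, edgeR adjusted p = 0.0245). It did not pass in DESeq2. *Ccn2*, which encodes a secreted matricellular protein, was at 4.15, 3.34 and 8.1 CPM in layer A and 0.859, 0.829 and 13.8 in layer C. Layer C replicate 3 was the highest and the other layer C samples the lowest of the 6 (log2 fold change -0.01 ± 0.86, edgeR adjusted p = 0.997). The summed level of the 9 genes was 152 and 164 normalized CPM in layer C replicates 1 and 2, 331 in replicate 3 and 95.2 to 114 in layer A. Without layer C replicate 3, 2 of the 9 passed as higher in layer C and 2 as higher in layer A. *Gng2*, a G protein gamma subunit, was at 30.7, 30.8 and 36.3 CPM in layer A and 83.2, 90.4 and 115 in layer C (log2 fold change -1.56 ± 0.31, edgeR adjusted p = 0.00676). *Synpr*, synaptoporin of synaptic vesicles, was at 5.67, 8.15 and 6.33 CPM in layer A and 17.8, 19.3 and 32.7 in layer C (log2 fold change -1.80 ± 0.35, edgeR adjusted p = 0.00625). Both passed whichever sample was left out.

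Markers of striatal projection neurons, of the olfactory bulb, of the choroid plexus and of blood were followed in the same way. Of 8 tested striatal genes, *Pde10a*, a phosphodiesterase, was higher in layer C (log2 fold change -1.61 ± 0.33, edgeR adjusted p = 0.00718) and *Syndig1l* was higher in layer A (log2 fold change 2.08 ± 0.61, edgeR adjusted p = 0.0376). The *Syndig1l* difference lost the threshold in 4 of the 9 fits with 1 sample left out, under library totals without mitochondrial counts and with the replicate block. *Pde10a* was at 5.93, 10.6 and 13.1 CPM in layer A and 30.4, 32 and 28.3 in layer C. *Drd2*, a dopamine receptor gene under the count minimum, had 320 counts in layer C replicate 3 and 0 to 28 counts in the other 5 samples. Of 3 tested mitral and tufted cell genes, *Cdhr1* was higher in layer C in 8 of 9 pairs (log2 fold change -1.45 ± 0.44, edgeR adjusted p = 0.0458). It lost the threshold in 5 of the 9 fits with 1 sample left out and in 3 of the 11 other settings. None of the 4 tested choroid plexus and ependyma genes passed the adjusted threshold of edgeR or DESeq2 (0 had an unadjusted p under 0.05 in edgeR and 1 in DESeq2), and *Ttr*, the defining choroid plexus gene, had 0 to 5 counts per sample. The 3 tested blood genes, *Hbb-bs*, *Hbb-bt* and *Alas2*, had higher values in layer A in all 9 pairs, as did 19.4% of all tested genes, without passing edgeR's or DESeq2's adjusted threshold (2 had an unadjusted p under 0.05 in edgeR and 1 in DESeq2). With the replicate block, 1 of the 3 passed. *Hbb-bs* was at 3.05, 2.94 and 9.1 CPM in layer A and 0.687, 0 and 2.21 in layer C. This globin gene shares near-identical sequence with *Hbb-bt*.

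**Figure D3:**
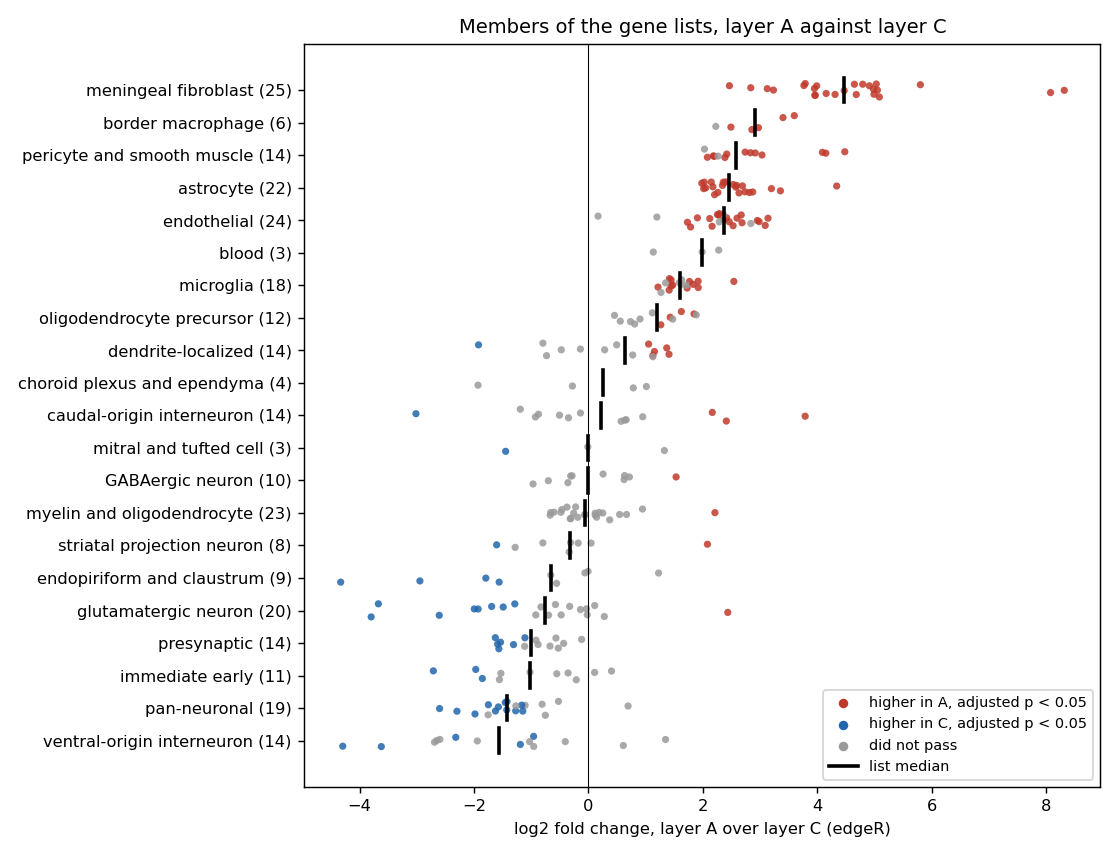
Log2 fold change of layer A over layer C (horizontal axis) for each tested member of 21 gene lists, 1 point per gene, with the list median as a black bar and the number of tested members in brackets. Red and blue points passed the edgeR threshold, higher in layer A and in layer C. The medians run from -1.57 for ventral-origin interneuron genes to 4.47 for meningeal fibroblast genes, and the median over all tested genes was -0.02.

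Of 19 pan-neuronal genes, those that most neurons express, 12 were higher in layer C, against 5.46% of all tested genes. The list median was -1.43, and the median was below 0 in each of the 9 sample pairs (-1.68 to -0.81). *Snap25*, a core component of the vesicle fusion machinery, was at 585, 409 and 853 CPM in layer A and 2387, 2361 and 1468 in layer C (log2 fold change -1.75 ± 0.43, edgeR adjusted p = 0.0166). *Syt1*, the calcium sensor of transmitter release, was at 191, 252 and 265 CPM in layer A and 612, 602 and 687 in layer C (log2 fold change -1.43 ± 0.28, edgeR adjusted p = 0.00612). *Vsnl1*, a neuronal calcium sensor, was at 122, 56.2 and 193 CPM in layer A and 658, 814 and 358 in layer C (log2 fold change -2.30 ± 0.55, edgeR adjusted p = 0.0148). None of these overlapped between the layers, and 16.6% of all tested genes were likewise higher in layer C in all 9 pairs. *Celf4*, an RNA-binding protein gene, had the highest log2 fold change of the list, at 498, 503 and 289 CPM in layer A and 249, 313 and 236 in layer C (log2 fold change 0.69 ± 0.30, edgeR adjusted p = 0.166). Layer A was higher in 8 of its 9 pairs. The number that passed fell to 2 without layer A replicate 2 or layer C replicate 1, to 4 without layer A replicate 1 and to 6 without layer C replicate 2, while *Syt1* passed throughout.

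Presynaptic genes followed with 6 of 14 tested members higher in layer C, against 5.46% of all tested genes. The list median was -1.01 (-1.37 to -0.55 over the 9 pairs). *Pclo*, a scaffold of the presynaptic active zone, was at 218, 114 and 195 CPM in layer A and 441, 772 and 375 in layer C (log2 fold change -1.59 ± 0.34, edgeR adjusted p = 0.00951). *Bsn*, the other large scaffold of that zone, was at 239, 250.1 and 256 CPM in layer A and 269, 266 and 275 in layer C (log2 fold change -0.12 ± 0.25, edgeR adjusted p = 0.829). Its 6 values lay close together although layer C was higher in every pair, as for 16.6% of all tested genes. *Syp*, the vesicle protein synaptophysin, was at 77.7, 137 and 149 CPM in layer A and 472, 293 and 359.6 in layer C (log2 fold change -1.63 ± 0.31, edgeR adjusted p = 0.00561). *Syn1*, synapsin I, was at 156, 73.9 and 111 CPM in layer A and 316, 477 and 217 in layer C (log2 fold change -1.57 ± 0.46, edgeR adjusted p = 0.039). Without layer C replicate 1 the number that passed was 1, and without layer A replicate 1 it was 3. *Cplx2* was not analysed here.

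Dendrite-localized transcripts, those known to be carried into dendrites or to encode postsynaptic proteins, had a median of 0.63. Of 14, 5 were higher in layer A and 1 was higher in layer C, against 9.35% and 5.46% of all tested genes. *Camk2a*, a kinase of the postsynaptic density, was at 4131, 2672 and 2126 CPM in layer A and 1325, 1289 and 751 in layer C. All layer A samples were above all layer C samples, as for 19.4% of all tested genes (log2 fold change 1.41 ± 0.33, edgeR adjusted p = 0.0135). *Shank1*, a postsynaptic scaffold, was at 427, 368 and 330.1 CPM in layer A and 181, 157 and 204 in layer C (log2 fold change 1.05 ± 0.31, edgeR adjusted p = 0.0403). It passed in 2 of the 9 fits with 1 sample left out and in 8 of the 11 other settings. The other 3 that passed, *Ddn*, *Ppp1r9b* and *Psd*, are named because they complete the count. *Ddn*, which encodes dendrin, was at 298, 265 and 224 CPM in layer A and 145, 103 and 106 in layer C (log2 fold change 1.15 ± 0.27, edgeR adjusted p = 0.0143). *Ppp1r9b*, which encodes the spine protein spinophilin, was at 131, 181 and 146 CPM in layer A and 61.1, 46.4 and 69.9 in layer C (log2 fold change 1.37 ± 0.29, edgeR adjusted p = 0.0091). *Psd* passed as well, with a log2 fold change 1.13 ± 0.31, edgeR adjusted p = 0.0295. *Nrgn*, the calmodulin-binding protein neurogranin, was higher in layer C, at 3.3, 10.2 and 29.3 CPM in layer A and 45.1, 39.4 and 79.9 in layer C (log2 fold change -1.92 ± 0.57, edgeR adjusted p = 0.042). It passed in 4 of the 9 fits with 1 sample left out, where its log2 fold change ran from -3.01 to -1.47, and lost the threshold under library totals without mitochondrial counts and with 10 counts asked for in all 9 samples.

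*Map2*, the microtubule-associated protein of dendrites, was at 809, 402 and 417 CPM in layer A and 439, 537 and 362 in layer C. Its groups overlapped (log2 fold change 0.28 ± 0.33, edgeR adjusted p = 0.676). *Kif5c*, a kinesin motor, was at 257, 191 and 150.1 CPM in layer A and 282, 371 and 341 in layer C (log2 fold change -0.73 ± 0.38, edgeR adjusted p = 0.263). The median of the dendrite-localized list was above 0 in all 9 pairs, by as little as 0.08 in the pair of layer A replicate 3 and layer C replicate 1. No member passed edgeR's test as higher in layer A without layer C replicate 1 (6 had an unadjusted p under 0.05), and 2, 3, 2 and 2 passed without layer A replicate 1, layer A replicate 2, layer C replicate 2 and layer C replicate 3. *Shank1* lost the threshold when any 1 of 7 of the samples was left out.

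Among 20 tested genes of glutamatergic neurons, 8 were higher in layer C and 1 was higher in layer A. The shares over all tested genes were 5.46% and 9.35%. The list median was -0.76, with a range over the 9 pairs of -1.68 to -0.58. With at least 10 counts asked for in all 9 samples, 14 members were tested and 5 were higher in layer C, with a median of -0.79. The other members can reach the count minimum through the layer where they are high. *Sv2b*, a synaptic vesicle protein of glutamatergic neurons, was at 63.1, 118 and 105 CPM in layer A and 440.0, 433 and 267 in layer C (log2 fold change -2.0 ± 0.33, edgeR adjusted p = 0.00278). It passed whichever sample was left out. *Nptx1*, a neuronal pentraxin, was at 19, 40.9 and 32 CPM in layer A and 100.3, 74.5 and 83.8 in layer C (log2 fold change -1.49 ± 0.32, edgeR adjusted p = 0.00951). *Slc17a7*, the vesicular glutamate transporter VGLUT1, was at 70.6, 142 and 136 CPM in layer A and 238, 118 and 211 in layer C. Its groups overlapped because layer C replicate 2 lay below 2 layer A samples (log2 fold change -0.70 ± 0.36, edgeR adjusted p = 0.254). *Barhl2*, a homeobox transcription factor gene, was at 0, 0 and 0.623 CPM in layer A and 5.08, 5.04 and 1.78 in layer C. It stood at the threshold (log2 fold change -3.80 ± 1.18, edgeR adjusted p = 0.0499) and lost it in 5 of the 9 fits with 1 sample left out, under 2 other normalizations and with mitochondrial transcripts left out. DESeq2 gave it no adjusted p.

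*Otx1*, another homeobox gene, was the member higher in layer A, at 2.96, 3.47 and 3.19 CPM in layer A and 0.196, 0.829 and 0.775 in layer C. All layer A samples were above all layer C samples, as for 19.4% of all tested genes (log2 fold change 2.44 ± 0.58, edgeR adjusted p = 0.0148). It no longer passed without layer C replicate 1. The transcription factor genes *Neurod1*, *Neurod2*, *Neurod6* and *Barhl2* were, with *Sv2b*, *Nptx1* and *Slc17a6*, among those higher in layer C. *Neurod6* was at 0.169, 0.0668 and 1.3 CPM in layer A and 4.71, 4.08 and 14.3 in layer C. Its highest value was in layer C replicate 3. The number higher in layer C was 3 without layer A replicate 1, layer A replicate 2 or layer C replicate 1, and 4 without layer C replicate 2. *Cux1*, *Cux2*, *Bcl11b* and *Tle4*, transcription factor genes often used to mark cortical layers, had log2 fold changes of 0.11, -0.02, -0.14 and -0.03 and overlapped between the layers. *Barhl1* had 1 count in layer C replicate 3 and 0 in the other 5 samples.

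Of the general GABAergic genes, 1 of 10 passed, against 14.8% of all tested genes. *Gad1* and *Gad2* encode the enzymes that make GABA. *Gad1* was at 59.6, 45.2 and 43.9 CPM in layer A and 25.9, 28.6 and 41.4 in layer C (log2 fold change 0.63 ± 0.54, edgeR adjusted p = 0.539). *Gad2* was at 267, 138 and 121 CPM in layer A and 78.3, 96.8 and 144 in layer C (log2 fold change 0.72 ± 0.44, edgeR adjusted p = 0.353). *Gad1* was higher in layer A in all 9 pairs, as were 19.4% of all tested genes, and *Gad2* in 7. *Slc32a1*, the vesicular GABA transporter, was at 7.45, 5.01 and 4.96 CPM in layer A and 6.18, 6.19 and 8.75 in layer C (log2 fold change -0.29 ± 0.46, edgeR adjusted p = 0.772). The gene that passed was *Dlx6os1*, at 25.5, 18.7 and 10.9 CPM in layer A and 5.59, 5.93 and 7.43 in layer C (log2 fold change 1.53 ± 0.39, edgeR adjusted p = 0.0208). It lost the threshold without layer A replicate 1 or 2 or layer C replicate 1 or 2, and as an antisense RNA counted without strand it cannot be told from its partner. The list median was -0.02, with 7 pairs above 0 and 2 below, and it was 0.07 when library totals without mitochondrial counts set the scale.

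Within interneurons, genes of the ventral-origin and caudal-origin classes, which arise in different parts of the embryonic ganglionic eminences, were followed separately. Of 14 tested ventral-origin genes, 5 were higher in layer C (*Sst*, *Crhbp*, *Lhx6*, *Kcnc1* and *Kcnc2*), against 5.46% of all tested genes. The median was -1.57 (-2.94 to -0.83 over the pairs). With at least 10 counts asked for in all 9 samples, 9 members were tested, 3 were higher in layer C and 1 in layer A, and the median was -0.90. The other members can reach the count minimum through layer C, so the count and median of the 14 are a description. *Lhx6*, a transcription factor gene of this lineage, was at 4.15, 1.27 and 1.3 CPM in layer A and 7.63, 14.6 and 10.5 in layer C (log2 fold change -2.32 ± 0.52, edgeR adjusted p = 0.0117). *Kcnc1* and *Kcnc2*, potassium channels of fast-spiking cells, were higher in layer C in all 9 pairs, as were 16.6% of all tested genes. *Kcnc1* was at 20.7, 21.2 and 18.9 CPM in layer A and 56.3, 43.6 and 38.9 in layer C (log2 fold change -1.19 ± 0.27, edgeR adjusted p = 0.0123). *Kcnc2* was at 14.1, 20.2 and 14.9 CPM in layer A and 28, 29.2 and 38.3 in layer C (log2 fold change -0.96 ± 0.30, edgeR adjusted p = 0.048). The *Kcnc2* difference passed in 1 of the 9 fits with 1 sample left out and in 5 of the 11 other settings. *Pvalb*, parvalbumin, was at 0, 0.20 and 0.598 CPM in layer A and 1.52, 2.04 and 2.52 in layer C (log2 fold change -2.65 ± 0.97, edgeR adjusted p = 0.0955). Its layer A values are near the floor. *Sox6*, which oligodendrocyte precursors also express, had the highest log2 fold change, at 40.3, 25.5 and 11.4 CPM in layer A and 8.24, 7.85 and 14 in layer C (log2 fold change 1.35 ± 0.43, edgeR adjusted p = 0.0534). It passed in 8 of the 11 other settings, DESeq2 among them. The number higher in layer C was 2 without layer A replicate 2 or layer C replicate 1 and 10 without layer B replicate 3.

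Caudal-origin genes differed in both directions. Of 14 tested, 3 were higher in layer A and 1 was higher in layer C, against 9.35% and 5.46% of all tested genes. With 1 transcript per gene, with counts summed per gene or without layer B replicate 3, 3 were higher in each direction, and without layer A replicate 1 none was higher in layer C (3 had an unadjusted p under 0.05 in edgeR). *Reln*, the secreted glycoprotein reelin, was at 102, 102 and 74.7 CPM in layer A and 13, 17.6 and 21.8 in layer C (log2 fold change 2.41 ± 0.33, edgeR adjusted p = 0.00157). *Ndnf*, a secreted factor that marks neurogliaform cells of superficial cortex, was at 67.7, 32.3 and 28.1 CPM in layer A and 3.02, 2.55 and 3.6 in layer C (log2 fold change 3.79 ± 0.43, edgeR adjusted p = 0.00093). Both *Reln* and *Ndnf* passed whichever sample was left out and kept wide gaps between the layers. The paper reports reelin also in glutamatergic neurons, mainly those of anatomical layer II, so *Reln* does not mark interneurons alone. Which cells gave the *Reln* signal here was not tested. The last of these 3 was the chemokine gene *Cxcl14*. It was at 23.8, 20.4 and 16.2 CPM in layer A and 3.66, 4.72 and 5.05 in layer C (log2 fold change 2.17 ± 0.46, edgeR adjusted p = 0.00909). *Cck*, also a transcript of glutamatergic neurons, was the member higher in layer C. *Cnr1*, the cannabinoid receptor of *Cck* interneurons, was at 50.4, 39.3 and 32 CPM in layer A and 61.7, 67.9 and 93.3 in layer C (log2 fold change -0.87 ± 0.30, edgeR adjusted p = 0.0769). *Vip*, vasoactive intestinal peptide, was at 1.86, 1.14 and 12.4 CPM in layer A and 6.6, 10.1 and 5.99 in layer C and overlapped. The list median was 0.21 and turned to -0.94 without layer A replicate 3, and 4 pairs were above 0 against 5 below.

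**Figure D4:**
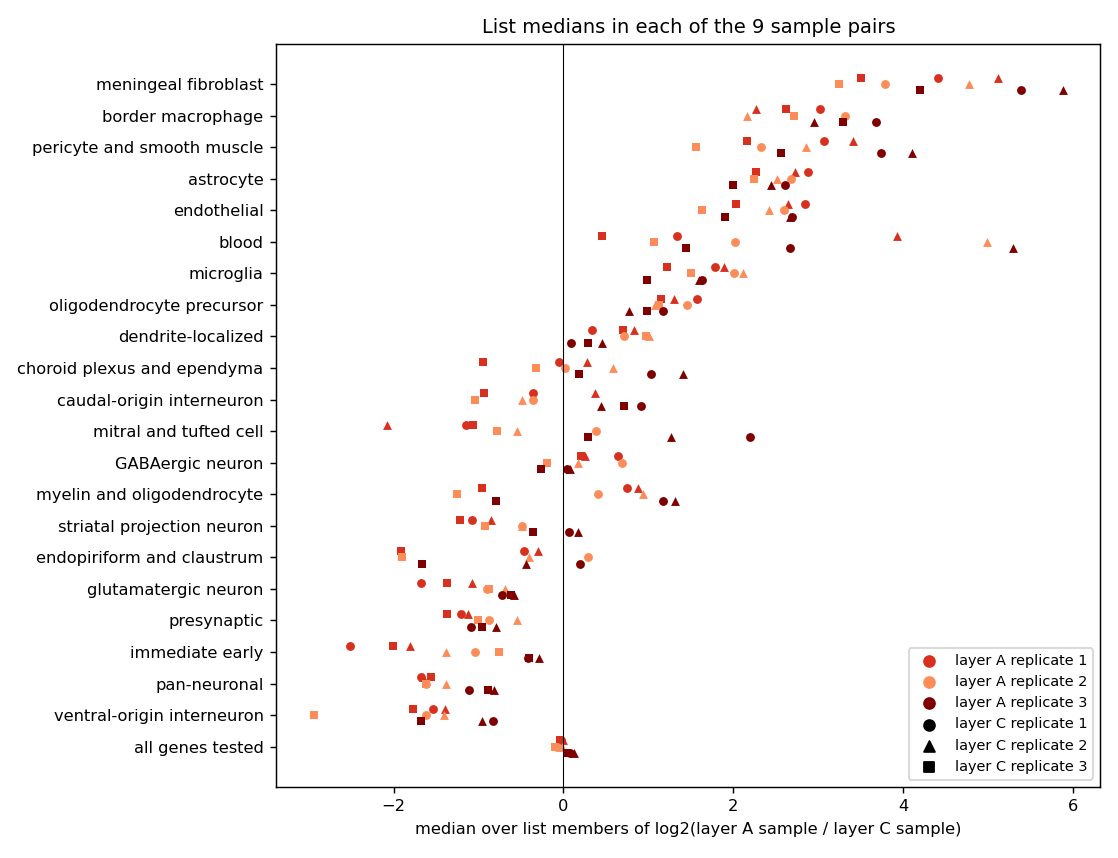
Median over the members of each list of the log2 ratio of normalized CPM (horizontal axis) in each of the 9 pairs of a layer A and a layer C sample. Colour gives the layer A replicate and shape the layer C replicate; for myelin and oligodendrocyte genes the 3 squares of layer C replicate 3 lie below 0 and the other 6 points above it.

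Astrocyte genes were higher in layer A in every case. All 22 members passed, each in all 9 pairs, against 9.35% of all tested genes that passed as higher in layer A. The list median was 2.46 (1.99 to 2.88 over the pairs). The summed level was 7555 to 14071 normalized CPM in layer A and 1725 to 2348 in layer C. *Slc1a2*, the main glutamate transporter of astrocytes, was at 8546, 6709 and 3668 CPM in layer A and 1013, 1358 and 1358 in layer C (log2 fold change 2.34 ± 0.35, edgeR adjusted p = 0.00205). *Glul*, glutamine synthetase, was at 744, 699 and 489.6 CPM in layer A and 93.7, 106 and 122 in layer C (log2 fold change 2.59 ± 0.46, edgeR adjusted p = 0.00393). *Sparcl1*, a secreted matricellular protein that vessels also express, was at 1052, 391 and 473 CPM in layer A and 149, 179.6 and 134 in layer C (log2 fold change 2.05 ± 0.43, edgeR adjusted p = 0.00832). *Clu*, which encodes clusterin, had the smallest difference of the list at 297, 276 and 299 CPM in layer A and 65.1, 49.4 and 106 in layer C (log2 fold change 1.98 ± 0.40, edgeR adjusted p = 0.00673). The largest was that of *Gfap*. Of the 22, 13 passed without layer C replicate 1 in edgeR's test, and all 22 had an unadjusted p under 0.05. In the pair of layer A replicate 3 and layer C replicate 2, with mitochondrial shares of 56.4% and 59.0%, the list median was 2.44. This is 1 of the 9 pairs, and the part of the mitochondrial share in the astrocyte difference was not tested.

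Of 23 tested genes of myelin and oligodendrocytes 1 passed, against 14.8% of all tested genes, and the list median was -0.07. *Mbp*, myelin basic protein, was at 32.9, 53.9 and 99.8 CPM in layer A and 52.2, 38.3 and 193 in layer C (log2 fold change -0.60 ± 0.61, edgeR adjusted p = 0.615). *Mal*, a myelin proteolipid gene, was at 50.5, 27.5 and 41.4 CPM in layer A and 20.8, 25.3 and 54 in layer C (log2 fold change 0.25 ± 0.55, edgeR adjusted p = 0.84). In both, layer C replicate 3 was the highest of the 6 samples. The summed level was 349 to 551 normalized CPM in layer A, 225 and 241 in layer C replicates 1 and 2, and 690 in replicate 3. The median of the list was above 0 in the 6 pairs with the first 2 layer C samples (0.40 to 1.31) and below 0 in the 3 pairs with replicate 3 (-1.25 to -0.79), and it was 0.95 when that sample was left out.

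*Car2*, carbonic anhydrase 2, was the member that passed, at 242, 83.8 and 70.8 CPM in layer A and 27.6, 28.4 and 29.4 in layer C (log2 fold change 2.21 ± 0.51, edgeR adjusted p = 0.0135). It is expressed beyond oligodendrocytes, and it lost the threshold without layer A replicate 1 or layer C replicate 1 or 2. *Opalin*, a myelin gene of mature oligodendrocytes, was at 0.508, 0.534 and 1.5 CPM in layer A and 0.393, 0.255 and 3.4 in layer C and had the lowest log2 fold change of the list (log2 fold change -0.67 ± 0.88, edgeR adjusted p = 0.715). Among genes of oligodendrocyte precursors, the dividing cells from which oligodendrocytes arise, 4 of 12 tested were higher in layer A. The share over all tested genes was 9.35%. The list median was 1.19 (0.78 to 1.57 over the pairs). *Ptprz1*, a receptor phosphatase that astrocytes share, was at 430.4, 281 and 168 CPM in layer A and 73.9, 102 and 69.2 in layer C (log2 fold change 1.85 ± 0.36, edgeR adjusted p = 0.00566). *Pdgfra*, the growth factor receptor that defines these cells, was at 59.6, 50.8 and 26.8 CPM in layer A and 11.9, 15.6 and 16.9 in layer C (log2 fold change 1.62 ± 0.35, edgeR adjusted p = 0.0093). *Vcan* and *Gpr17*, which encode versican and a receptor of differentiating precursors, were the others that passed. *Vcan* was at 63.8, 32.6 and 33.1 CPM in layer A and 10.7, 22.8 and 14.6 in layer C (log2 fold change 1.43 ± 0.39, edgeR adjusted p = 0.0277). *Gpr17* was at 26.8, 30.8 and 20.5 CPM in layer A and 10.4, 9.38 and 12.6 in layer C (log2 fold change 1.26 ± 0.32, edgeR adjusted p = 0.0184). *Sox10*, shared by the whole lineage, was at 11.6, 2.87 and 7.51 CPM in layer A and 4.64, 6.12 and 5.26 in layer C (log2 fold change 0.46 ± 0.46, edgeR adjusted p = 0.615). Without layer C replicate 1 no precursor gene passed edgeR's test, although 6 had an unadjusted p under 0.05, and 2 passed without layer A replicate 1. *Lhfpl3* was not analysed here.

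Of 18 microglial genes, 12 were higher in layer A, against 9.35% of all tested genes, with a median of 1.61 (0.99 to 2.12 over the pairs). *Csf1r*, the receptor on which microglia depend, was at 31.1, 31.1 and 32.1 CPM in layer A and 11.7, 12.4 and 16.5 in layer C (log2 fold change 1.22 ± 0.33, edgeR adjusted p = 0.0261). *P2ry12*, a purine receptor of resting microglia, was at 38.8, 25.7 and 16.4 CPM in layer A and 6.36, 8.87 and 8.49 in layer C (log2 fold change 1.77 ± 0.42, edgeR adjusted p = 0.0144). *Gpr34* had the largest difference at 10.2, 11.4 and 5.01 CPM in layer A and 1.15, 0.957 and 2.32 in layer C (log2 fold change 2.54 ± 0.57, edgeR adjusted p = 0.0113). *Itgam*, an integrin subunit, had higher values in layer A in all 9 pairs, as did 19.4% of all tested genes. Its level was 43.6, 19.6 and 12.4 CPM in layer A and 6.28, 11.6 and 5.24 in layer C. It did not pass in the fit of all 9 samples (log2 fold change 1.71 ± 0.55, edgeR adjusted p = 0.057) and passed in 8 of the 11 other settings, DESeq2 among them. These calls rested on few samples. Without layer C replicate 1 no member passed edgeR's test (13 had an unadjusted p under 0.05), and 3 passed without layer A replicate 1, layer A replicate 2 or layer C replicate 2.

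Macrophages of the brain borders, which lie in the meninges and around vessels, were followed with 11 genes. Of these, 6 reached the count minimum and 5 of those were higher in layer A, against 9.35% of all tested genes. *Mrc1*, the mannose receptor, was at 6.01, 4.14 and 5.26 CPM in layer A and 0.344, 1.85 and 0.715 in layer C (log2 fold change 2.49 ± 0.60, edgeR adjusted p = 0.0163). *Lyve1*, a hyaluronan receptor, was at 2.54, 1.4 and 4.66 CPM in layer A and 0.0982, 0.829 and 0.383 in layer C (log2 fold change 2.86 ± 0.77, edgeR adjusted p = 0.0265). *F13a1*, a coagulation factor subunit, was at 1.69, 2.14 and 2.59 CPM in layer A and 0.172, 0.191 and 0.23 in layer C (log2 fold change 3.40 ± 0.66, edgeR adjusted p = 0.00601). *Cd74* and *H2-Aa*, genes of antigen presentation, had log2 fold changes of 2.97 and 3.60, and *Cd163* did not pass edgeR's test (log2 fold change 2.23 ± 0.80, edgeR adjusted p = 0.0884) but passed that of DESeq2. All levels were low, and 2 of the 6 passed without layer A replicate 1 or layer C replicate 3 and 3 without layer C replicate 1. The 5 members under the minimum had at most 50 counts in a layer A sample and 20 in a layer C sample. A gene can reach the minimum through the layer where it is high, so these counts describe the members and lend no support to a difference.

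Endothelial genes were higher in layer A for 19 of 24 members, against 9.35% of all tested genes, with a median of 2.36 (1.63 to 2.85 over the pairs). With at least 10 counts asked for in all 9 samples, 17 members were tested and 14 passed, with a median of 2.35. The other members can reach the count minimum through layer A. *Slc2a1*, the glucose transporter of the blood-brain barrier, was at 125, 124 and 138 CPM in layer A and 31.9, 30.7 and 40.7 in layer C (log2 fold change 1.90 ± 0.29, edgeR adjusted p = 0.00235). *Slco1a4*, an organic anion transporter, was at 62.5, 55.2 and 56.5 CPM in layer A and 4.96, 11 and 11.2 in layer C (log2 fold change 2.69 ± 0.46, edgeR adjusted p = 0.00331). *Flt1*, a VEGF receptor, was at 31.8, 31.3 and 22.5 CPM in layer A and 5.18, 5.1 and 5.71 in layer C (log2 fold change 2.42 ± 0.35, edgeR adjusted p = 0.00181). *Vwf*, von Willebrand factor, had the largest difference at 12.8, 7.95 and 13.1 CPM in layer A and 0.564, 2.23 and 1.19 in layer C (log2 fold change 3.14 ± 0.50, edgeR adjusted p = 0.00257). *Ramp2*, a receptor partner, had the smallest at 11.9, 8.15 and 11.1 CPM in layer A and 10.6, 6.76 and 10.2 in layer C. Its groups overlapped (log2 fold change 0.17 ± 0.33, edgeR adjusted p = 0.82). With counts summed per gene, the log2 fold change of *Ramp2* was 1.82 and passed. In the fit without layer C replicate 1, 11 members passed and 21 had an unadjusted p under 0.05.

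The mural cells of vessels, pericytes and smooth muscle, were followed with 16 genes. Of 14 tested members 12 were higher in layer A, against 9.35% of all tested genes, with a median of 2.58 (1.56 to 4.11 over the pairs). With at least 10 counts asked for in all 9 samples, 8 members were tested and 8 passed, with a median of 2.63. The other members can reach the count minimum through layer A, so the count and median of the 14 are a description. *Rgs5*, a regulator of G protein signalling in pericytes, was at 297, 188 and 143 CPM in layer A and 38.6, 60 and 38.4 in layer C (log2 fold change 2.20 ± 0.45, edgeR adjusted p = 0.0079). *Vtn*, vitronectin, was at 14.7, 9.55 and 30.2 CPM in layer A and 2.13, 1.4 and 4.45 in layer C (log2 fold change 2.74 ± 0.63, edgeR adjusted p = 0.0126). *Abcc9*, a potassium channel regulator of pericytes, was at 20.9, 8.62 and 10.5 CPM in layer A and 2.31, 3.76 and 2.79 in layer C (log2 fold change 2.18 ± 0.55, edgeR adjusted p = 0.0199). *Higd1b* had the smallest difference and did not pass (log2 fold change 2.03 ± 0.97, edgeR adjusted p = 0.211). The smooth muscle genes *Myh11* and *Acta2* had larger log2 fold changes than the pericyte genes *Rgs5* and *Abcc9*. *Myh11* and *Acta2* belong to the 12 largest differences on the layer A side, so their choice favours this order. Whether smooth muscle and pericyte genes differ as groups was not tested. Of the 14, 4 passed without layer C replicate 1, and 13 had an unadjusted p under 0.05.

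Meningeal fibroblast genes had the highest median of all lists, 4.47 (3.24 to 5.88 over the pairs). All 25 tested members of 27 were higher in layer A, against 9.35% of all tested genes. The list was chosen with earlier results of these data known. It holds *Myoc*, *Ogn*, *Fmod*, *Islr*, *Col1a2*, *Igf2* and *Ptgds*, named above for their large differences, so this share is a description. The summed level was 348, 361 and 887 normalized CPM in layer A replicates 1, 2 and 3 and 17.2, 16.2 and 52.1 in layer C. Replicate 3 was the highest in both layers. *Slc22a8*, an organic anion transporter, was at 21.9, 16.7 and 29.4 CPM in layer A and 2.7, 2.3 and 2.77 in layer C (log2 fold change 3.13 ± 0.49, edgeR adjusted p = 0.00244). *Col1a2*, a chain of type I collagen, was at 10.3, 7.95 and 17.3 CPM in layer A and 0.442, 0.574 and 0.588 in layer C (log2 fold change 4.47 ± 0.58, edgeR adjusted p = 0.00146). *Prrx1*, a mesenchymal transcription factor gene, had the smallest difference, at 10.4, 9.55 and 9.63 CPM in layer A and 1.1, 3.13 and 1.3 in layer C (log2 fold change 2.46 ± 0.51, edgeR adjusted p = 0.00802). When layer C replicate 1 was left out, 21 of 25 passed. Of the 25, 4 had at least 10 counts in all 9 samples, and these 4 also passed in the fit restricted to such genes, with a median of 3.69. The other 21 can reach the count minimum through layer A, so their count and the median of the 25 are a description. The list medians of astrocyte, microglial, endothelial and mural genes were also above 0 in all 9 pairs, and the part of meningeal tissue in those differences was not tested.

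**Figure D5:**
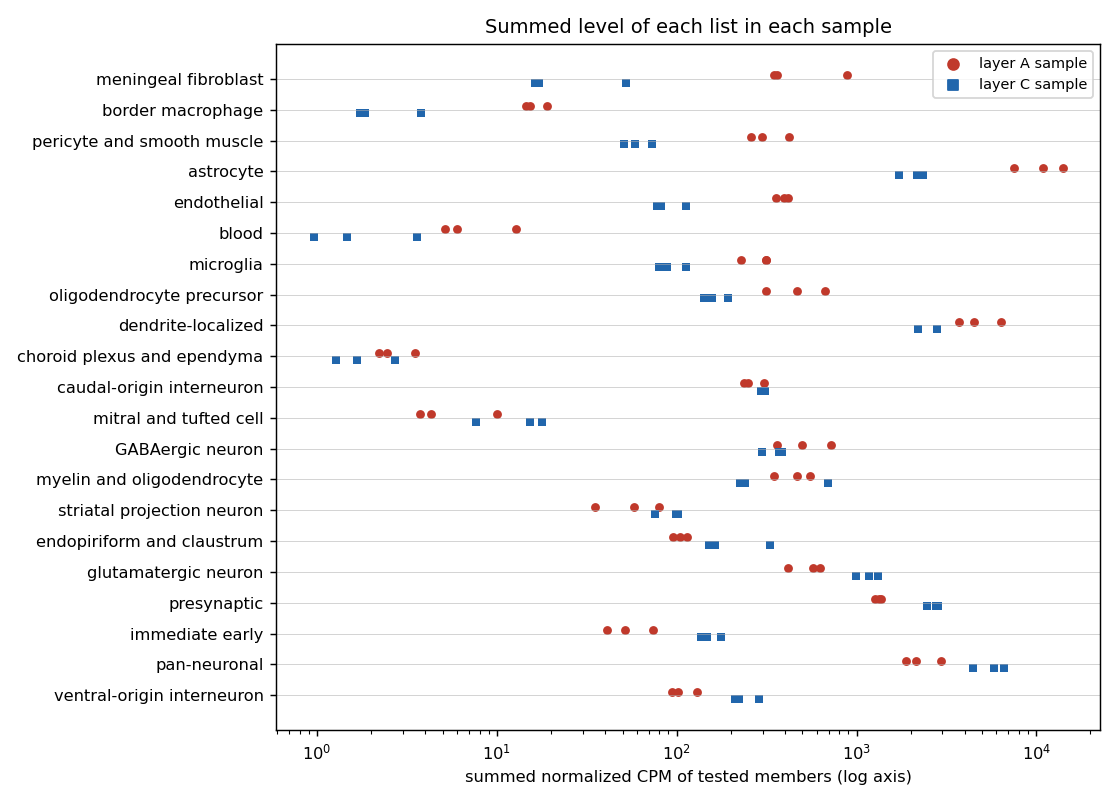
Summed normalized CPM of the tested members of each list (horizontal log axis) in the 3 layer A samples (red circles) and the 3 layer C samples (blue squares). Meningeal fibroblast genes sum to 348 to 887 in layer A and 16.2 to 52.1 in layer C, and layer C replicate 3 has the highest value for myelin genes (690) and for endopiriform and claustrum genes (331).

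Immediate early genes, which neurons switch on after activity, were followed with 11 genes. Of these, 3 were higher in layer C, against 5.46% of all tested genes, with a list median of -1.02 (-2.51 to -0.29 over the pairs). With at least 10 counts asked for in all 9 samples, 5 members were tested, 2 were higher in layer C and the median was -0.47. The other members can reach the count minimum through layer C, so the count and median of the 11 are a description. *Egr1*, a zinc finger transcription factor gene, was at 17.4, 24.8 and 34.6 CPM in layer A and 118, 95.6 and 89 in layer C (log2 fold change -1.97 ± 0.31, edgeR adjusted p = 0.00235). It passed whichever sample was left out. *Egr2* was at 0.593, 0.0668 and 1.42 CPM in layer A and 6.77, 4.85 and 3.4 in layer C (log2 fold change -2.71 ± 0.62, edgeR adjusted p = 0.0126). *Fosb* was at 1.52, 2.74 and 1.42 CPM in layer A and 8.91, 7.65 and 3.95 in layer C (log2 fold change -1.86 ± 0.44, edgeR adjusted p = 0.0154). *Fos* and *Npas4*, which respond to neuronal activity, had higher values in layer C in all 9 pairs without passing edgeR's test (log2 fold change -1.56 ± 0.59, edgeR adjusted p = 0.11 and log2 fold change -1.53 ± 0.59, edgeR adjusted p = 0.114). Among all tested genes, 16.6% were higher in layer C in all 9 pairs. *Fos* passed in DESeq2 and with the replicate block. *Dusp1*, *Btg2*, *Junb* and *Ier2* overlapped between the layers, with log2 fold changes from -0.36 to 0.40. The number past the threshold was 1 without layer A replicate 1 or layer C replicate 1.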

How the data were processed

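RNA of laser-captured layers was amplified by the authors with the Ovation system and sequenced from strand non-specific libraries. Per the labels and methods, reads were aligned to mm10 with Bowtie, and the submitters' processing notes also name bcl2fastq 1.8.4 and HTSeq 0.5.3. The deposited values are raw read counts per Ensembl transcript, without normalization. How a read shared by several transcripts was treated is not given in the sources used here, and reads without molecular identifiers are not independent molecules. Among 8648 genes for which more than 1 transcript was tested, the most and the second most abundant were within 10% of each other in 4560.

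Of 95533 transcripts, 82807 were found in GENCODE M21 (GRCm38). A minimum of 10 counts in 3 or more samples left 56416 transcripts, which were scaled with TMM and compared by edgeR 4.0.16 (quasi-likelihood F-test of layer A against layer C, all 9 samples in the fit, Benjamini-Hochberg adjustment over all tested transcripts, threshold 0.05) in R 4.3.3. Each annotated gene was represented by the transcript with the highest mean normalized CPM over the 6 samples. The standard error was the absolute log2 fold change over the root of its F value, and pair ratios used a prior count of 2. The procedure was tested on simulated data. Alternatives were other normalizations, DESeq2 1.42.0, other filters, a replicate block, the 6 samples alone, 1 transcript or summed counts per gene, no mitochondrial transcripts, and each sample left out.

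The comparison and the gene lists were chosen with earlier results of these data known. Named genes are the 12 largest per direction, in each list the 4 most abundant, the largest, the smallest and those against its direction, and all members of lists of up to 11 genes. Some genes that this rule names are not reported here. Others named were chosen after their values were seen.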

Additional observations from a re-analysis of the deposited data

How the results depend on the processing

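Over the fits that left out 1 sample, the number of differing genes ranged from 553 to 3307, with 382 to 2002 higher in layer A and 171 to 1305 higher in layer C. The lowest values came without layer C replicate 1 and the highest without layer B replicate 3. In the same fits the members higher in layer C ranged from 3 to 8 for glutamatergic, 2 to 14 for pan-neuronal, 1 to 7 for presynaptic and 2 to 10 for ventral-origin interneuron genes. The members higher in layer A ranged from 0 to 6 for dendrite-localized, 13 to 22 for astrocyte, 0 to 1 for myelin, 0 to 6 for precursor, 0 to 17 for microglial, 11 to 21 for endothelial, 4 to 13 for mural and 21 to 25 for meningeal genes. With at least 10 counts asked for in all 9 samples, fewer genes were tested, and 5 glutamatergic and 3 ventral-origin genes were higher in layer C and 4 meningeal genes in layer A. With only the 6 samples in the fit, 8 ventral-origin genes passed on that side. For Ccn2 the log2 fold change ran from -0.51 without layer C replicate 1 to 2.63 without layer C replicate 3, against -0.01 in the full fit. The other alternatives left these counts within 1.5 times their value. Over the 137 named genes and all settings, 2491 values kept their side of the threshold, 155 lost it and 41 gained it. For 1 value, that of Ccn2 above, the gene passed with the opposite sign. Genes that did not pass could change sign within the 2491. Over the fits with 1 sample left out, the log2 fold change of Opalin ran from -1.43 to 1.40 and that of Mbp from -1.12 to 0.47. Library totals without mitochondrial counts moved the median of all genes by 0.11 on the log2 scale and gave 1544 genes higher in layer A and 627 higher in layer C. DESeq2 gave 1903 and 1104. The 9-of-9 counts ranged from 2921 to 3276 for layer A and from 2002 to 2573 for layer C over the other normalizations and summed counts.

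Deviations of same-numbered layer A and layer C samples correlated at -0.07, -0.19 and 0.19, so the replicate numbers were not taken to pair the samples. A fit with the replicate block gave 2326 differing genes, 1465 higher in layer A and 861 higher in layer C.

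With 3 samples per layer, calls depend on single libraries. Counts outside the mitochondrial genes ran from 6929782 to 19051783 in layer A and from 9477078 to 60245059 in layer C, and genes of low level were measured less precisely in the shallower samples.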

Other observations

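By annotation type, 13551 of the tested genes were protein coding, and 1369 of these passed on the layer A side and 802 on the layer C side. Of 472 antisense genes, 22 and 10 passed, and of 144 lincRNA genes, 7 and 4. The counting did not use strand, so an antisense gene cannot be told from its partner. Of 550 processed pseudogenes, 6 and 3 passed, and reads of these can come from their parent genes. Within layer A the correlations of log2 levels between samples, taken across genes, which are not independent replicates, ran from 0.894 to 0.913, within layer C from 0.905 to 0.960, and between the layers from 0.822 to 0.908.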
